A study of Mus musculus with 7 samples.

Results

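Ferritin stores cellular iron, and 8 genes that build or govern it are described here across sorted mouse lung monocytes: the subunit genes Fth1 and Ftl1, the ferritinophagy receptor gene Ncoa4, the iron regulatory protein genes Aco1 and Ireb2, the ubiquitin ligase gene Fbxl5 and the iron chaperone genes Pcbp1 and Pcbp2. They were chosen by function, with earlier results of these data known, and found by gene symbol. All 8 were present among the 26130 genes of the count table and passed the filter on low counts. The study instilled lipopolysaccharide (LPS, a bacterial cell wall component that provokes inflammation; 20 µg in 50 µl, from E. coli 0111:B4) into the trachea of Fth1-mScarlet x Lyz2GFP mice and took the lungs 3 days later. Both alleles are reporters that all groups carried: Fth1-mScarlet reports ferritin heavy chain expression by red fluorescence, and Lyz2GFP marks myeloid cells. Cells positive for GFP, CD11b and Ly6C and negative for Ly6G were sorted and then gated on mScarlet, and their polyadenylated RNA was sequenced.

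The groups were LPS Fth1-high cells (n = 3 libraries), LPS Fth1-low cells (n = 2) and Fth1-low cells of untreated mice (n = 2). The labels name no strain background or age and do not say whether a library came from 1 mouse or a pool, so p-values measure library-to-library spread, part of which may be technical. LPS Fth1-high against LPS Fth1-low cells compares the gates. The gate was set on the Fth1 reporter, so the Fth1 difference there is a description of the sort. LPS Fth1-low against untreated Fth1-low cells differs in treatment within the low gate. The labels call the untreated mice non-treated and name no instillation for them, so instillation and LPS cannot be told apart. The low gate may hold a different part of the cells in each group. LPS Fth1-high against untreated Fth1-low cells differs in treatment and gate together, and no untreated Fth1-high library is used. The 3 comparisons share libraries and are not independent of each other.

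Total counts were 15285553 to 27997007 in LPS Fth1-high libraries, 637787 and 19001523 in LPS Fth1-low libraries and 22995442 and 10459703 in untreated libraries. LPS Fth1-low replicate 1 stood apart: it was the shallowest, 19.5% of its counts fell on ribosomal RNA genes (0.705% to 8.42% elsewhere), and its log2 values correlated with its partner at r = 0.863 across genes, against 0.960 to 0.980 for other replicate pairs. One count in that library is 1.67 CPM (counts scaled to library size), against at most 0.0932 CPM in the others. Xist and the Y-linked Ddx3y were both above 30 CPM in LPS Fth1-high replicate 1 and in both LPS Fth1-low libraries, while the remaining 4 libraries held mainly 1 of the pair. The 8 monocyte and macrophage markers were detected in every library and summed to 14425 to 18426 CPM across the LPS Fth1-high libraries, 12343 and 16182 CPM across the LPS Fth1-low pair and 18031 to 18705 CPM in untreated libraries, and much of each sum was Lyz2. Lyz2, Itgam (CD11b) and Ly6c2 (Ly6C) are genes of the sort markers, so their detection was set by the sort. Single markers moved in opposite directions within these sums. In LPS Fth1-high against LPS Fth1-low cells 2 of the 8 were called higher and 1 lower (3.68% and 4.57% of all tested genes). In LPS Fth1-high against untreated cells 4 were called higher and 1 lower (12.4% and 11.9% of all tested genes). The chemokine receptor gene Ccr2 averaged 226 CPM in LPS Fth1-high, 1219 CPM in LPS Fth1-low and 1321 CPM in untreated libraries, and the macrophage marker Adgre1 averaged 1096, 426 and 289 CPM in the same order. The part of these differences in the ferritin results was not tested.

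Ferritin is a hollow shell of heavy and light chains. The heavy chain oxidises ferrous iron and the light chain favours its deposition as a mineral. The chaperones PCBP1 and PCBP2 bring iron to the shell, and NCOA4 binds the heavy chain and carries ferritin to lysosomes, where the iron is released. Translation of both chains is held back by iron regulatory proteins IRP1 (Aco1) and IRP2 (Ireb2), which bind an iron-responsive element, a hairpin in the 5′ UTR, when iron is scarce. FBXL5 is stabilised by iron and marks IRP2 for degradation. These steps act on protein or translation, which messenger RNA counts do not measure.

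The hairpin is the feature that sets the subunits apart from their regulators, so the elements found in the 5′ UTRs of GENCODE vM21 transcripts (mouse genome GRCm38/mm10) are shown with the loop in capitals, in DNA letters 5′ to 3′ on the strand of the gene. The search asked, on the transcript strand, for an unpaired C, 5 bases, a loop of CAGTGN whose last base is not G, and 5 bases that pair with the first 5, G-T pairs allowed. The Slc40a1 element (ferroportin, the cellular iron exporter) is given for comparison.
Fth1: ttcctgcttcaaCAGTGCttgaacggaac
Ftl1: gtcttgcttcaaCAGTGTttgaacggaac
Slc40a1: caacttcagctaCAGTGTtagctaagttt
The Fth1 element lies at chr19:9982732-9982760 on the plus strand, the Ftl1 element at chr7:45459779-45459807 on the minus strand and the Slc40a1 element at chr1:45925465-45925493 on the minus strand, each in exon 1 of the transcript searched. Fth1 and Ftl1 shared 26 of 29 bases, and either shared 13 of 29 with Slc40a1. Of the 8 genes, 2 held a match, against 22 of 20306 genes with a 5′ UTR of at least 29 bases (0.108%). No match in the other 6 says only that this pattern is not in those transcripts.

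Of the 8 genes, the ferritin heavy chain gene, whose reporter set the gate, differed most between the groups. Fth1 (chr19:9980598-9985098) stood at 13231, 21000 and 20473 CPM in LPS Fth1-high libraries, 2970 and 4825 CPM in the LPS Fth1-low pair, with 1786 and 1672 CPM in the untreated pair. The 3 groups did not overlap. Fth1 alone took 1.30% to 2.07% of all counts in LPS Fth1-high libraries, 0.278% and 0.494% in LPS Fth1-low libraries and 0.187% and 0.171% in untreated libraries (in the shallow library the Wilson 95% interval, for counting error only, was 0.266% to 0.291%). Per kilobase of transcript, Fth1 ranked 1, 2 and 1 among 25080 genes in LPS Fth1-high libraries, 17 and 6 in LPS Fth1-low libraries and 30 in both untreated libraries. LPS Fth1-high cells differed from LPS Fth1-low cells by a log2 difference of 2.23 ± 0.35 (SE; adjusted p = 0.0047, edgeR quasi-likelihood test with Benjamini-Hochberg adjustment over 13665 genes), in the direction of the gate. Against untreated cells, Fth1 was 10.6-fold higher in LPS Fth1-high cells (95% interval 5.92 to 18.8, adjusted p = 0.00017 by the same test). The gate enters this difference too, since it was high in 1 group and low in the other. Within the low gate, LPS Fth1-low cells held a log2 difference of 1.17 ± 0.35 against untreated cells, which the edgeR test did not call (adjusted p = 0.143, unadjusted p = 0.00851) and DESeq2 did (adjusted p = 0.00124). In bulk RNA, fewer cells expressing a gene and less RNA per cell cannot be told apart.

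Light chain RNA was higher in LPS Fth1-high cells than in both other groups. Ftl1 (chr7:45457944-45459884) stood at 1042, 1451 and 1620 CPM in LPS Fth1-high libraries, 686 and 479 CPM in the LPS Fth1-low pair, with 522 and 440 CPM in the untreated pair. All LPS Fth1-high libraries lay above every other library, and the LPS Fth1-low and untreated libraries overlapped. Ftl1 rose 2.37-fold in LPS Fth1-high cells against LPS Fth1-low cells (95% interval 1.54 to 3.65, adjusted p = 0.0238, edgeR quasi-likelihood) and 2.85-fold against untreated cells (1.85 to 4.40, adjusted p = 0.00362). The first call did not pass when LPS Fth1-high replicate 2 (adjusted p = 0.0728), its replicate 3 (0.0861) or LPS Fth1-low replicate 2 (0.0983) was left out, and neither did the second without untreated replicate 2 (0.0521). In LPS Fth1-low against untreated cells the log2 difference of Ftl1 was 0.27 ± 0.29 (adjusted p = 0.788; 95% interval -0.39 to 0.93).

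**Figure D1:**
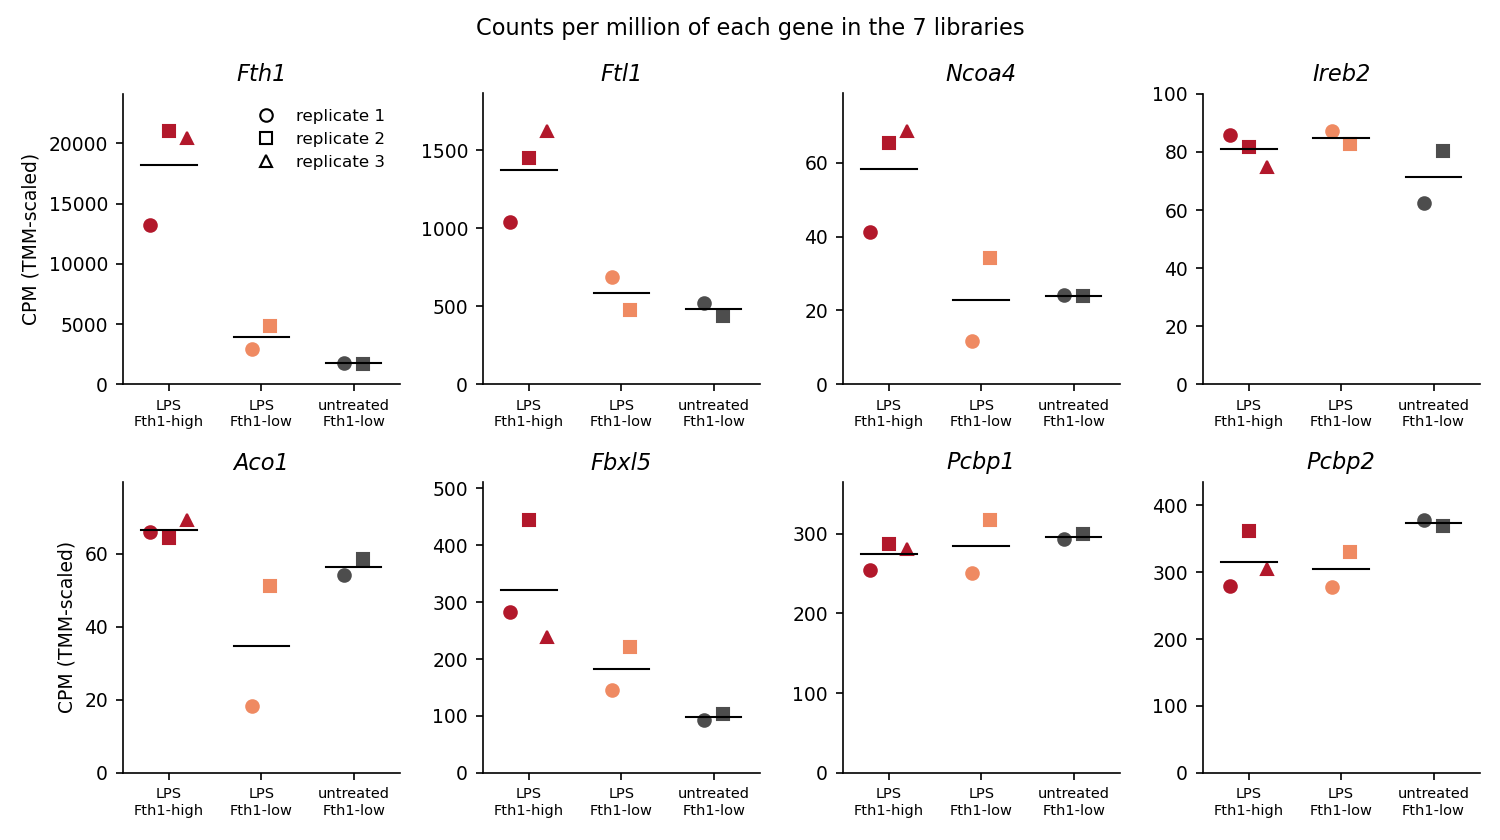
CPM of each of the 8 genes (vertical axes from 0, each panel with its own range) in LPS Fth1-high, LPS Fth1-low and untreated Fth1-low libraries; each point is 1 library, its shape the replicate number, and the horizontal line is the group mean. Fth1, Ftl1, Ncoa4, Aco1 and Fbxl5 stand above all other libraries in the 3 LPS Fth1-high libraries, while the group means of Pcbp1 lie between 274 and 296 CPM.

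Reads of Ftl1 cannot be assigned with certainty, since 76.1% of the 58-base windows of its main transcript (693 of 911) also occur in other annotated transcripts, chiefly ferritin light chain pseudogenes, and 36.7% of that transcript lies opposite Gm10252. How the authors' pipeline handled reads with several matches, and which strand it counted, could not be read from the sources used here. Of the 13 other ferritin-like genes looked for, 8 were in the table and 1, the pseudogene Ftl1-ps2, had counts, while the mitochondrial ferritin gene Ftmt had none. Ftl1-ps2, which shares 80 of those windows, stood at 73.0, 70.3 and 77.1 CPM in LPS Fth1-high libraries, 30.1 and 29.5 CPM in the LPS Fth1-low pair, with 37.4 and 29.2 CPM in the untreated pair. It rose with Ftl1 in LPS Fth1-high cells, with log2 differences of 1.31 ± 0.21 against LPS Fth1-low cells (adjusted p = 0.00513) and 1.14 ± 0.19 against untreated cells (adjusted p = 0.00193, edgeR), and its log2 difference in LPS Fth1-low against untreated cells was -0.17 ± 0.22. For Fth1, 3.48% of the windows were shared.

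The ratio of the chains separated the groups. Fth1 held 12.7, 14.5 and 12.6 counts for each Ftl1 count in LPS Fth1-high libraries, 4.33 and 10.1 in LPS Fth1-low libraries and 3.42 and 3.80 in untreated libraries. Every LPS Fth1-high library was above every LPS Fth1-low library, and those were above the untreated ones. Scaling between libraries cancels in this ratio, but the gate on Fth1 enters it for the LPS Fth1-high cells. The geometric means were 13.2, 6.60 and 3.61 in that order of groups. Groups of this size can reach no lower than p = 0.2 for 3 libraries against 2 and p = 0.333 for 2 against 2 in a two-sided exact permutation test, and each comparison of the ratio stood at that smallest value. The LPS Fth1-low pair was far apart, with the shallow replicate 1 near the untreated libraries and replicate 2 nearer the LPS Fth1-high ones. Divided by transcript length, the ratio was 8.19 to 9.38 for LPS Fth1-high, 2.80 and 6.53 for LPS Fth1-low and 2.22 and 2.46 in untreated libraries.

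**Figure D2:**
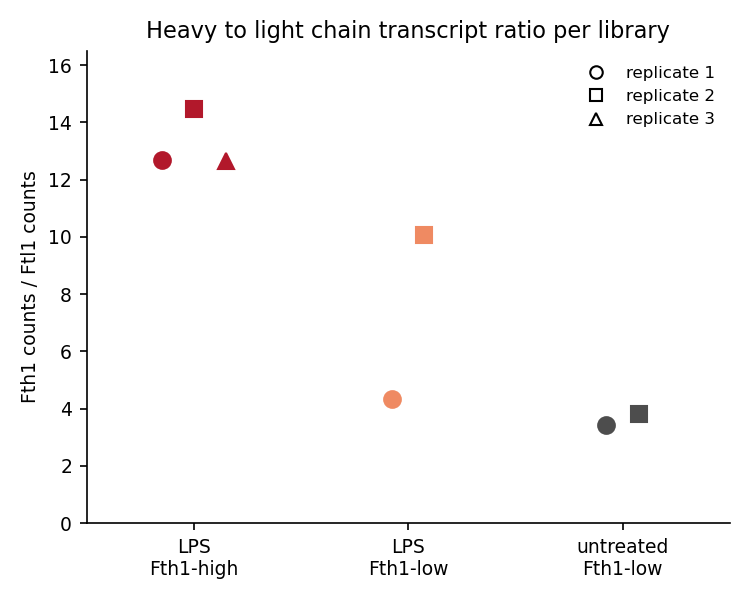
Ratio of Fth1 counts to Ftl1 counts (vertical axis from 0, no unit) in each of the 7 libraries, by group; point shapes are replicate numbers. The LPS Fth1-high libraries lie between 12.6 and 14.5, the LPS Fth1-low pair at 4.33 and 10.1 and the untreated pair at 3.42 and 3.80.

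Ncoa4, whose product delivers ferritin to the lysosome, was higher in LPS Fth1-high cells than in untreated cells. Ncoa4 (chr14:32159865-32179855) stood at 41.1, 65.2 and 68.5 CPM in LPS Fth1-high libraries, 11.7 and 34.1 CPM in the LPS Fth1-low pair, with 24.1 and 24.0 CPM in the untreated pair. All LPS Fth1-high libraries lay above the others, and the LPS Fth1-low libraries lay on either side of the untreated pair. The lowest value rests on 7 counts in the shallow library (exact Poisson 95% interval 4.71 to 24.2 CPM). Ncoa4 rose 2.43-fold in LPS Fth1-high against untreated cells (95% interval 1.46 to 4.05, adjusted p = 0.0193, edgeR), a call that did not pass without untreated replicate 1 or 2 (adjusted p = 0.114 and 0.113) or without LPS Fth1-high replicate 2 or 3 (0.0554 and 0.0617). Against LPS Fth1-low cells the log2 difference was 1.09 ± 0.35 and was not called (adjusted p = 0.1). DESeq2 called it (adjusted p = 0.0306). In LPS Fth1-low against untreated cells the log2 difference was 0.19 ± 0.37, whereas the mean CPM was lower in LPS Fth1-low libraries, 22.9 against 24.0, because the model weighs the deeper library more. A related gene model, Gm6768, shares 42.5% of the 58-base windows of Ncoa4.

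The iron regulatory proteins are the translational brakes on both chains, and neither of their genes passed the test in any comparison. Ireb2 (chr9:54863789-54912530) stood at 86.0, 81.8 and 74.7 CPM in LPS Fth1-high libraries, 87.1 and 82.8 CPM in the LPS Fth1-low pair, with 62.5 and 80.3 CPM in the untreated pair, with LPS Fth1-high libraries overlapping both other groups. Its log2 difference in LPS Fth1-high against LPS Fth1-low cells was -0.06 (95% interval -0.51 to 0.38, adjusted p = 0.904, edgeR) and in LPS Fth1-high against untreated cells 0.18 (-0.25 to 0.61, adjusted p = 0.539). Aco1 (chr4:40143081-40198338), which encodes the iron-sulfur enzyme that becomes IRP1 when it loses its cluster, stood at 65.8, 64.3 and 69.3 CPM in LPS Fth1-high libraries, 18.4 and 51.2 CPM in the LPS Fth1-low pair, with 54.2 and 58.5 CPM in the untreated pair. The groups did not overlap and LPS Fth1-low was lowest, but its shallow library held 11 Aco1 counts (exact Poisson 95% interval 9.19 to 33.0 CPM). The log2 difference of Aco1 was 0.73 ± 0.30 in LPS Fth1-high against LPS Fth1-low cells (adjusted p = 0.199), -0.49 ± 0.32 in LPS Fth1-low against untreated cells (adjusted p = 0.6) and 0.24 ± 0.28 in LPS Fth1-high against untreated cells (adjusted p = 0.585, edgeR).

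Fbxl5, the ligase subunit that removes IRP2 when iron is plentiful, was the regulator with the largest difference between LPS Fth1-high and untreated cells. Fbxl5 (chr5:43744615-43821638) stood at 283, 445 and 238 CPM in LPS Fth1-high libraries, 146 and 221 CPM in the LPS Fth1-low pair, with 92.2 and 103 CPM in the untreated pair. The groups were ordered without overlap, although LPS Fth1-high replicate 3 lay close to LPS Fth1-low replicate 2. Fbxl5 rose 3.30-fold in LPS Fth1-high against untreated cells (95% interval 2.04 to 5.35, adjusted p = 0.0032, edgeR), and this call stood in each fit that left out 1 library (adjusted p 0.00289 to 0.0393). The intermediate steps were not called: the log2 difference was 0.79 ± 0.30 in LPS Fth1-high against LPS Fth1-low cells (adjusted p = 0.167) and 0.93 ± 0.33 in LPS Fth1-low against untreated cells (adjusted p = 0.223, unadjusted p = 0.0182).

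A gene on the opposite strand moved with Fbxl5. Exons of Bst1, a surface enzyme of myeloid cells, overlap 98 of the 9740 exonic bases of Fbxl5 and none of its main transcript. Bst1 stood at 405, 540.5 and 545 CPM in LPS Fth1-high libraries, 208 and 257 CPM in the LPS Fth1-low pair, with 54.8 and 45.3 CPM in the untreated pair, and rose in LPS Fth1-high against untreated cells by 3.31 ± 0.25 on the log2 scale (adjusted p = 2.33e-05, edgeR). Bst1 was also called higher in LPS Fth1-low against untreated cells (log2 difference 2.225, adjusted p = 0.00118, edgeR). The same held in LPS Fth1-high against LPS Fth1-low cells (1.09, adjusted p = 0.0188, edgeR). Fbxl5 differed in the same direction in both, with log2 differences of 0.93 and 0.79. It was called in neither (unadjusted p = 0.0182 and 0.028, edgeR). Bst1 was near equal in LPS Fth1-high replicates 2 and 3. Without the counted strand, the part of its reads in the Fbxl5 counts was not tested.

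No difference was called for the iron chaperone genes. Pcbp1 (chr6:86524492-86526321) stood at 255, 287 and 281 CPM in LPS Fth1-high libraries, 251 and 317.5 CPM in the LPS Fth1-low pair, with 293 and 299.7 CPM in the untreated pair. Pcbp2 (chr15:102470539-102500061) stood at 280.1, 362 and 305 CPM in LPS Fth1-high libraries, 278 and 331 CPM in the LPS Fth1-low pair, with 378 and 369 CPM in the untreated pair. Both proteins also bind poly(C) stretches of RNA in many other processes. In LPS Fth1-high against untreated cells the log2 difference was -0.11 for Pcbp1 (95% interval -0.54 to 0.32, adjusted p = 0.715) and -0.24 for Pcbp2 (-0.69 to 0.20, adjusted p = 0.422, edgeR). Both intervals end short of the estimates for Fth1, Ftl1, Ncoa4 and Fbxl5 in that comparison. Exons of Map3k12, on the other strand, cover 26.2% of the main Pcbp2 transcript, and 1600020E01Rik lies opposite 4.1% of Pcbp1. Both stayed under 9 CPM in every library, and in LPS Fth1-high against untreated cells Map3k12 was called higher (log2 difference 1.47, adjusted p = 0.047) and 1600020E01Rik lower (-1.36, adjusted p = 0.0166, edgeR).

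**Figure D3:**
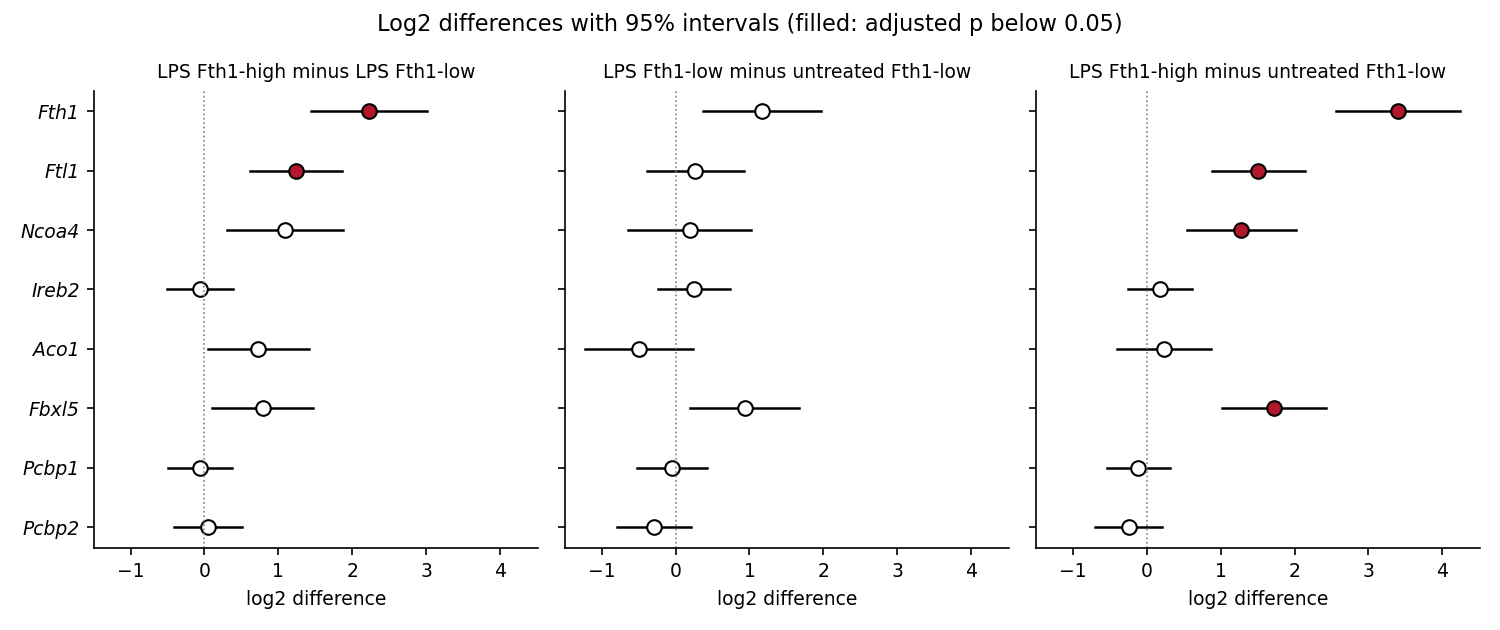
Log2 differences (horizontal axis) of the 8 genes in the 3 comparisons, with 95% intervals from the edgeR fit; filled points have an adjusted p below 0.05. Fth1 and Ftl1 are filled for LPS Fth1-high minus LPS Fth1-low, none for LPS Fth1-low minus untreated Fth1-low, and Fth1, Ftl1, Ncoa4 and Fbxl5 for LPS Fth1-high minus untreated Fth1-low.

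Counted together, 2 of the 8 genes rose and none fell in LPS Fth1-high against LPS Fth1-low cells, where 3.68% of all 13665 tested genes were called higher and 4.57% lower. Fth1 is 1 of the 2 and was the gate. The 8 were chosen with earlier results of these data known, so the shares in this paragraph are a description. The median log2 difference of the 8 was 0.76, against 0.04 over all genes, and 5 of 8 had libraries that did not overlap, against 41.3% of all genes. In LPS Fth1-low against untreated cells none of the 8 was called by edgeR (2 had an unadjusted p below 0.05, DESeq2 called 1 and limma-voom 0), where 2.99% of genes were called higher and 0.629% lower. The 2 were Fth1 and Fbxl5, both higher, and none of the 8 was lower at an unadjusted p below 0.05. At that threshold 1067 of all 13665 tested genes were higher. The median of the 8 was 0.22, against -0.05 over all genes, and 5 of 8 did not overlap, against 39.5%. In LPS Fth1-high against untreated cells 4 rose and none fell, where 12.4% of genes were called higher and 11.9% lower. Fth1 is 1 of the 4 and was the gate here too, high in 1 group and low in the other. The median of the 8, Fth1 included, was 0.76, against 0.03 over all genes, and 7 of 8 did not overlap, against 58.1%.

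Levels compared per kilobase of the main transcript put the 8 genes in the same broad tiers in the LPS Fth1-high libraries as elsewhere. In LPS Fth1-high cells, Fth1 averaged 12205 ± 2906 CPM per kb and Ftl1 1416 ± 307 (SD, n = 3). Pcbp2 followed at 210.5 ± 27.9, Pcbp1 at 149.9 ± 9.43 and Fbxl5 at 113 ± 38.0, and Pcbp1 and Fbxl5 overlapped. Aco1 at 17.4 ± 0.658, Ncoa4 at 14.3 ± 3.67 and Ireb2 at 14.0 ± 0.987 overlapped with their neighbours in that order. In LPS Fth1-low cells Fth1 averaged 2609 ± 878 CPM per kb and Ftl1 602 ± 152, and in untreated cells 1157 ± 54.3 and 497 ± 59.8 (SD, n = 2 each). The ferritin chains were the most abundant of the 8 in all 3 groups, and the genes of the iron regulatory proteins and Ncoa4 the least.

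Among genes of transcription factors known to act on ferritin genes and of their partners, the repressor gene Bach1 was lower in LPS Fth1-high cells than in both other groups. Of 9 genes listed, which include Keap1, the ubiquitin ligase adaptor that restrains NRF2, 3 fell and none rose in LPS Fth1-high against LPS Fth1-low cells (4.57% of all tested genes fell and 3.68% rose). In LPS Fth1-low against untreated cells 1 rose (2.99% of all genes), and in LPS Fth1-high against untreated cells 2 rose and 4 fell (12.4% and 11.9% of all genes). Bach1, a heme-sensitive repressor of antioxidant genes that include the ferritin chains, stood at 144, 106 and 112 CPM in LPS Fth1-high libraries, 311 and 332 CPM in the LPS Fth1-low pair, with 343 and 424 CPM in the untreated pair, and the LPS Fth1-high libraries lay below all others. Bach1 fell in LPS Fth1-high cells by 1.42 ± 0.21 on the log2 scale against LPS Fth1-low cells (adjusted p = 0.00356) and by 1.67 ± 0.21 against untreated cells (adjusted p = 0.000384, edgeR), and was called in all 7 fits that left out 1 library in both comparisons. Nfe2l2, which encodes the activator NRF2 at the same DNA sites, was not called (383, 405 and 490 CPM in LPS Fth1-high libraries, 308 and 613.5 CPM in LPS Fth1-low libraries, 319 and 404 CPM in untreated libraries).

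The small Maf genes, whose products pair with either factor, went in different directions. Maff rose in LPS Fth1-low cells by 2.41 ± 0.25 on the log2 scale against untreated cells (adjusted p = 0.000683, edgeR), at 98.8 and 71.2 CPM in the LPS Fth1-low pair, with 14.8 and 16.2 CPM in the untreated pair. It also rose in LPS Fth1-high cells against untreated cells (59.6, 61.1 and 77.4 CPM; log2 difference 2.09, adjusted p = 0.000172). Mafk fell in LPS Fth1-high cells, to 64.6, 51.7 and 54.9 CPM, against 95.4 and 109 CPM in LPS Fth1-low libraries (log2 difference -0.86, adjusted p = 0.027, called in 4 of 7 fits without 1 library) and 109.9 and 128 CPM in untreated libraries (-1.06, adjusted p = 0.00308). Nfkb1, an NF-kB subunit gene, fell to 237, 246 and 259 CPM in LPS Fth1-high libraries, against 357 and 511.5 CPM in LPS Fth1-low libraries (adjusted p = 0.0465, called in 1 of 7 such fits) and 493 and 572 CPM in untreated libraries (adjusted p = 0.00448). Jund fell against untreated cells (log2 difference -0.93, adjusted p = 0.00732). Mafg rose by 0.60 on that scale (adjusted p = 0.0422, called in 2 of 7 such fits, up to 0.21, and lost without any 1 of the LPS Fth1-high or untreated libraries). Without untreated replicate 2 the calls against untreated cells did not pass for Jund (adjusted p = 0.0632) or Nfkb1 (0.0554). Against LPS Fth1-low cells, Mafk was lost without LPS Fth1-high replicate 2 or 3, and when LPS Fth1-low replicate 2 was left out (adjusted p up to 0.12), and Nfkb1 passed only without LPS Fth1-low replicate 1 (up to 0.161 in the others).

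The DNA core bound by NRF2 or BACH1 paired with small Maf proteins, TGACNNNGC, was looked for on both strands of RefSeq promoter windows (GRCm38.p6, 250 bases before to 50 after each start). It was present in 1 of 11 windows of the 7 member genes that had one, a window of Ncoa4, against 12.4% of 32851 windows. Elements farther from the start lie outside these windows.

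Among other messages that carry iron-responsive elements, both importers of iron were higher in LPS Fth1-high than in untreated cells. Of 8 such genes, 1 rose in LPS Fth1-high against LPS Fth1-low cells, none was called in LPS Fth1-low against untreated cells (1 had an unadjusted p below 0.05, DESeq2 and limma-voom called 0), and 2 rose in LPS Fth1-high against untreated cells, with none falling in the edgeR fit. Of all tested genes, 3.68%, 2.99% and 12.4% were called higher in those comparisons. The 1 with an unadjusted p below 0.05 was the importer gene Slc11a2, higher in LPS Fth1-low than in untreated cells. At that threshold 1067 of all 13665 tested genes were higher in that comparison, and none of the 8 was lower. The median log2 differences of the 8 were -0.28, 0.16 and 0.52 in the order of comparisons above. Slc11a2, the ferrous iron importer DMT1, stood at 71.1, 87.0 and 83.3 CPM in LPS Fth1-high libraries, 25.1 and 44.4 CPM in the LPS Fth1-low pair, with 22.3 and 22.8 CPM in the untreated pair. It rose in LPS Fth1-high cells by 1.08 ± 0.24 on the log2 scale against LPS Fth1-low cells (adjusted p = 0.0239, called in 3 of 7 fits without 1 library) and by 1.83 ± 0.24 against untreated cells (adjusted p = 0.000456, edgeR). Tfrc, the transferrin receptor, stood at 29.4, 33.2 and 26.9 CPM in LPS Fth1-high libraries, 10.0 and 18.5 CPM in the LPS Fth1-low pair, with 11.3 and 16.3 CPM in the untreated pair, and rose against untreated cells (log2 difference 1.12 ± 0.26, adjusted p = 0.0116, edgeR). The call for Tfrc did not pass without untreated replicate 1 (adjusted p = 0.126), and for Slc11a2 against LPS Fth1-low cells the adjusted p reached 0.0849, the losses being without LPS Fth1-high replicate 2 or 3, the shallow LPS Fth1-low replicate 1 or untreated replicate 2. In both messages the known elements lie in the 3′ UTR, where IRP binding protects the RNA in Tfrc.

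In the autophagy machinery that delivers NCOA4-bound ferritin, 3 of 15 genes rose and none fell in LPS Fth1-high against LPS Fth1-low cells (median log2 difference 0.10), none was called in LPS Fth1-low against untreated cells (-0.15; 1 had an unadjusted p below 0.05, DESeq2 and limma-voom called 0) and 2 rose in LPS Fth1-high against untreated cells (-0.16). Of all tested genes, 3.68% were called higher in the first comparison and 12.4% in the last, so 2 of 15 is near the share of all genes. The 1 of 15 with an unadjusted p below 0.05 in LPS Fth1-low against untreated cells was Gabarapl1, lower by log2 difference (-0.62). That count of 1 is not set against a share of all genes. Sqstm1, the cargo receptor p62, stood at 620, 734 and 744 CPM in LPS Fth1-high libraries, 281 and 438 CPM in the LPS Fth1-low pair, with 321 and 292 CPM in the untreated pair. All LPS Fth1-high libraries lay above the rest. The log2 difference of Sqstm1 was 1.19 ± 0.24 in LPS Fth1-high against untreated cells (adjusted p = 0.00628, edgeR) and 0.94 ± 0.24 against LPS Fth1-low cells (adjusted p = 0.0437, called in 1 of 7 fits without 1 library). Atg5, needed to lipidate LC3, rose against LPS Fth1-low cells (log2 difference 0.89, adjusted p = 0.034, called in 3 of 7 such fits) and against untreated cells (0.95, adjusted p = 0.00789). Gabarapl1, an LC3 relative, rose against LPS Fth1-low cells (1.05, adjusted p = 0.0257, called in 3 of 7 such fits). All 3 of these calls against LPS Fth1-low cells were lost without LPS Fth1-high replicate 2 or 3, and also without the shallow LPS Fth1-low replicate 1, with an adjusted p of up to 0.148 for Sqstm1, 0.118 for Atg5 and 0.111 for Gabarapl1. Sqstm1 and Atg5 were also lost without untreated replicate 2, Sqstm1 without replicate 1 of the untreated or the LPS Fth1-high libraries, and Gabarapl1 without LPS Fth1-low replicate 2. Against untreated cells, Sqstm1 and Atg5 did not pass without untreated replicate 2 (adjusted p = 0.0744 and 0.0934).

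Few of the remaining partners were called. None of 10 genes for FBXL5 ligase subunits and cytosolic iron-sulfur assembly was called by edgeR in any comparison. At an unadjusted p below 0.05, 0 of them passed between the LPS gates, 0 between LPS Fth1-low and untreated cells and 2 between LPS Fth1-high and untreated cells. In that last comparison 2527 of all 13665 tested genes were higher and 2408 lower at that threshold. DESeq2 called 0 of the 10 in each comparison, and limma-voom called 2 in the last. The scaffold gene Cul1 stood at 102, 102 and 108 CPM in LPS Fth1-high libraries, 77.0 and 109.5 CPM in the LPS Fth1-low pair, with 112 and 114 CPM in the untreated pair. Of 6 PCBP relatives and chaperone clients, none was called by edgeR in LPS Fth1-high against LPS Fth1-low cells (2 at an unadjusted p below 0.05, DESeq2 2, limma-voom 1) or in LPS Fth1-low against untreated cells (0 by each of these counts). Between the gates, 1485 of all 13665 tested genes were higher and 1470 lower at an unadjusted p below 0.05. The DESeq2 and limma-voom counts of both lists are not set against those of all genes, so no excess is read from them. In LPS Fth1-high against untreated cells, where 12.4% of all tested genes were called higher, 2 of the 6 rose, namely Pcbp4 (8.49, 6.01 and 6.12 CPM in LPS Fth1-high libraries, 1.71 and 0.653 CPM in untreated libraries, adjusted p = 0.00645) and the oxygen-sensing prolyl hydroxylase gene Egln1 (84.7, 73.7 and 92.5 CPM against 49.2 and 49.3 CPM, adjusted p = 0.0284, edgeR). Pcbp4 did not pass without untreated replicate 2 (adjusted p = 0.054), and Egln1 did not pass without any 1 of the LPS Fth1-high or untreated libraries (up to 0.149).

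Of 3 genes tied to ferritin uptake or release, only Cd63 passed the filter on low counts. The mouse ferritin receptor genes Timd2 and Scara5 had no count and at most 0.791 CPM. Cd63, a tetraspanin of late endosomes through which ferritin can leave cells in vesicles, stood at 37.0, 67.5 and 100.4 CPM in LPS Fth1-high libraries, 8.37 and 6.74 CPM in the LPS Fth1-low pair, with 2.75 and 1.40 CPM in the untreated pair. The 3 groups did not overlap. Cd63 rose in LPS Fth1-high cells by 3.29 ± 0.52 on the log2 scale against LPS Fth1-low cells (adjusted p = 0.00533, but 0.122 without LPS Fth1-low replicate 2) and by 4.97 ± 0.50 against untreated cells (adjusted p = 0.000126, edgeR).

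**Figure D4:**
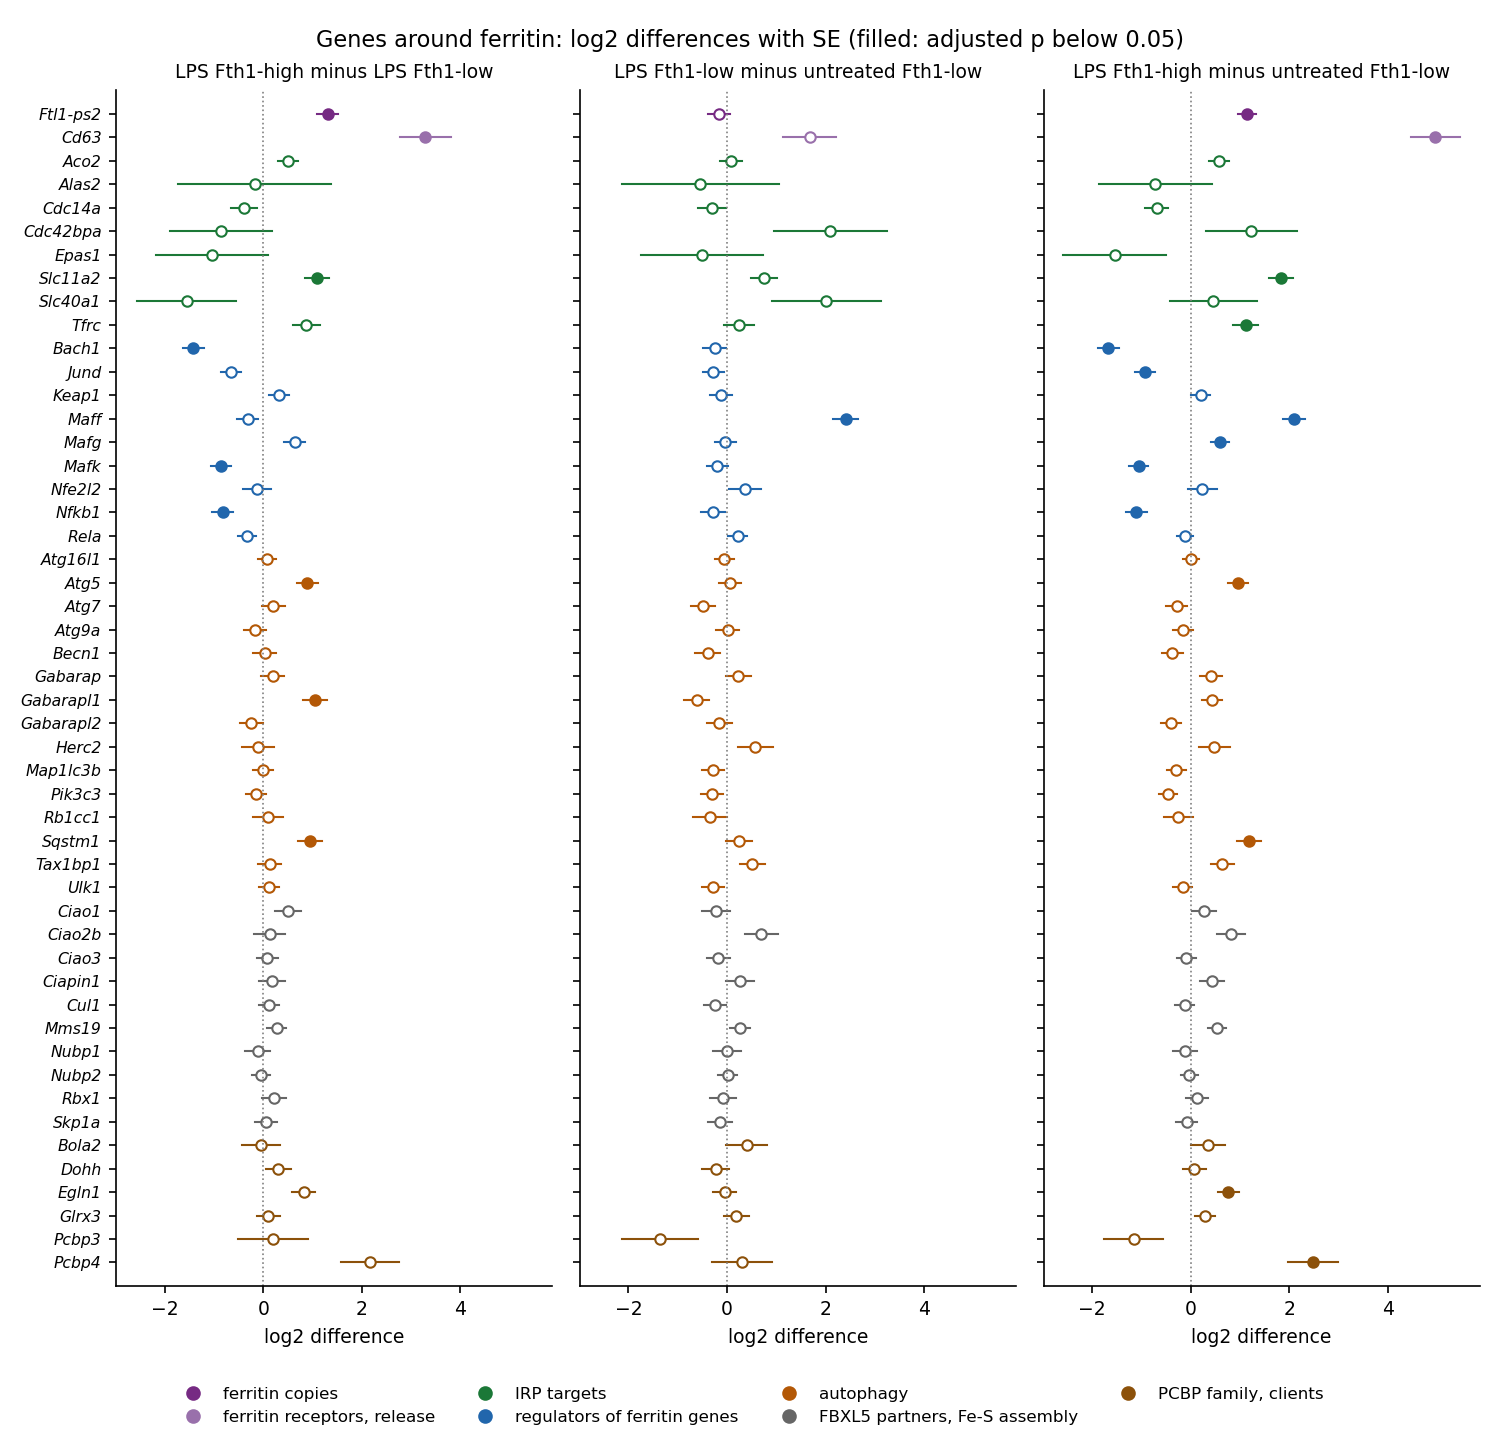
Log2 differences (horizontal axis) with standard errors of the tested genes around ferritin in the 3 comparisons, coloured by list; filled points have an adjusted p below 0.05. Cd63 lies farthest to the right and Bach1 farthest to the left among filled points in LPS Fth1-high against both other groups, and Maff is the only filled point for LPS Fth1-low minus untreated Fth1-low.

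Markers of other cells also differed between the groups in which ferritin RNA differed. The 5 dendritic cell markers summed to 1.34 to 4.60 CPM in LPS Fth1-high libraries, 36.8 and 51.7 CPM in the LPS Fth1-low pair, with 92.2 and 101 CPM in the untreated pair. Of the 5, 2 fell in LPS Fth1-high against LPS Fth1-low cells, where 4.57% of all tested genes fell. Against untreated cells 1 fell in LPS Fth1-low cells (0.629% of all tested genes) and 2 in LPS Fth1-high cells (11.9%). The 6 alveolar macrophage markers summed to 480 to 1887 CPM across the LPS Fth1-high libraries, 3204 and 5833 CPM across the LPS Fth1-low pair and 1487 to 1497 CPM in untreated libraries, most of it Chil3, which monocytes also express. The 8 neutrophil markers summed to 374 to 408 CPM, 655 to 692 CPM and 408 to 442 CPM in those groups. Much of each sum was Csf3r, averaging 300, 431 and 327.5 CPM. S100a8 averaged 57.1, 72.8 and 8.54 CPM, S100a9 7.71, 36.2 and 10.3 CPM and Mmp8 23.4, 128 and 74.7 CPM. Of 7 tested, 2 were called lower in LPS Fth1-high against LPS Fth1-low cells (4.57% of all tested genes). Against untreated cells 1 was higher in LPS Fth1-low cells (2.99%), and 1 higher and 1 lower in LPS Fth1-high cells (12.4% and 11.9%). Ly6g, the marker gated out, was at most 0.0674 CPM in any group mean. In none of these lists was a marker at 0 throughout a group. The dendritic cell sum ran opposite to Fth1 through all groups, as did the means of Flt3, Zbtb46 and Cd209a. Xcr1 and Clec9a were instead highest in LPS Fth1-low libraries, with 5 and 7 counts in the shallow one. Xcr1 averaged 0.685, 4.88 and 0.733 CPM and Clec9a 1.09, 8.66 and 3.89 CPM in LPS Fth1-high, LPS Fth1-low and untreated libraries. The alveolar macrophage and neutrophil sums were highest in LPS Fth1-low cells. Other alveolar macrophage markers did not follow Chil3: Pparg averaged 2.30 CPM in LPS Fth1-high, 8.23 CPM in LPS Fth1-low and 37.9 CPM in untreated libraries, and Fabp4 averaged 1.49, 1.49 and 22.6 CPM. Of the 6, 1 was called lower in LPS Fth1-low against untreated cells (0.629% of all tested genes). In LPS Fth1-high against untreated cells 1 was called higher and 2 lower (12.4% and 11.9% of all tested genes). In that last comparison 2 of 4 tested erythroid markers, 1 of 4 NK cell markers and 1 of 4 B cell markers were also called lower. The medians of those lists were -3.10, -1.56 and -1.34 on the log2 scale. The epithelial sum was 592 CPM in 1 untreated library and 3.08 CPM in the other. The part of these cells in the ferritin differences was not tested.

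The genes whose log2 CPM tracked each member most closely over the 7 libraries, among 8325 genes averaging 10 CPM or more, are given as a description; the libraries share their 3 groups, so high values arise for any gene that separates them. Nearest to Fth1 were Clec4d (Pearson r = 0.997), Slc3a2 (0.996), Amdhd2, Abca1 and Acsl1 (0.995 to 0.994). Nearest to Ftl1 were Tspan4 (0.995), Dynll2, Plpp5, Ilf2 and Vat1. Nearest to Ncoa4 were Wdr92 (0.996), Vwa8, Nagk, Atp6ap2 and Sgpl1, and nearest to Fbxl5 were Aoah (0.992), Adamtsl4, Cyfip1, Adam9 and Nlrc4. The closest gene was Slc4a7 for Ireb2 (0.987), Atf1 for Pcbp1 (0.982) and Rsu1 for Pcbp2 (0.983). For Aco1 it was Lsm14b, at 0.997 with all libraries and 0.943 without the shallow LPS Fth1-low replicate 1.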

How the data were processed

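The values are counts per gene, whole numbers in the table the authors deposited for 7 poly(A) RNA libraries (25 ng of RNA, stranded kit, paired reads of 58 bases, per the labels' protocols). Per the submitters' processing notes the pipeline named DRAGEN, DESeq2 and mm10; its versions, annotation, strand setting and treatment of multiple matches could not be read from the sources used here. Of 26130 genes, 6880 had no count, and 0 sample columns were unused.

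Counts were tested in R 4.3.3 with edgeR 4.0.16 (filterByExpr, TMM scaling, 1 robust quasi-likelihood model of 7 libraries and 3 groups, two-sided, Benjamini-Hochberg over 13665 genes, called below 0.05; residual df 4). SE is the log2 difference over the square root of F, with t intervals. CPM uses TMM-scaled library sizes. DESeq2 1.42.0, limma 3.58.1 (voom), other scalings, filters, left-out libraries and a replicate block were alternatives. The model was tested on simulated data. Symbols were matched to GENCODE vM21 (25080 of 26130), and lengths are of the main transcript. The members and lists were chosen with earlier results of these data known. All members are named, with up to 4 called genes of each other list by adjusted p, or highly expressed ones where none was called. Nfe2l2, Keap1, Slc40a1, Epas1, Bst1, Map3k12, 1600020E01Rik and the markers named were added after their values were seen.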

Additional observations from a re-analysis of the deposited data

How the results depend on the processing

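Depth limits LPS Fth1-low replicate 1 most, and 2 or 3 libraries a group limit every test. Of the member results under all alternatives, 435 kept direction and call, 8 lost a call, 7 gained one and 6 changed sign, none of those 6 called; the cause was not tested. In LPS Fth1-high against LPS Fth1-low cells 2 members were called, 4 with a replicate block, which added Ncoa4 (1.10, adjusted p = 0.0267) and Fbxl5 (0.98, adjusted p = 0.0292), 3 by DESeq2, and 1 to 3 when 1 library was left out: 1 without LPS Fth1-high replicate 2 or 3, and 3 without LPS Fth1-low replicate 2 (Ncoa4 2.33, Aco1 1.86, Ftl1 lost). In LPS Fth1-low against untreated cells 0 were called, 1 by DESeq2, and 0 to 1 when 1 library was left out (Aco1 lower, -1.63, without LPS Fth1-low replicate 2). In LPS Fth1-high against untreated cells 4 were called, and 2 to 4 when 1 library was left out (2 without untreated replicate 2, 3 without untreated replicate 1 or LPS Fth1-high replicate 2 or 3). A group left with 1 library is assumed to vary like the others.

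Signs changed between the gates for Pcbp1 (0.14 without LPS Fth1-low replicate 2; leave-one-out range -0.23 to 0.14) and Pcbp2 (-0.091 without LPS Fth1-low replicate 1, -0.085 when LPS Fth1-high replicate 2 was left out; range -0.09 to 0.19). In LPS Fth1-low against untreated cells they changed for Ncoa4 (-0.023 with the replicate block, -1.06 without LPS Fth1-low replicate 2; range -1.06 to 0.54) and Pcbp1 (0.13 without LPS Fth1-low replicate 1; range -0.26 to 0.13). All genes called numbered 1128 between the gates, 658 and 681 without LPS Fth1-high replicate 2 or 3; 495 in LPS Fth1-low against untreated cells, 812 by DESeq2, 197 and 214 without untreated replicate 1 or 2; and 3315 in LPS Fth1-high against untreated cells, 1918 and 1921 without those. The median log2 difference of all genes lay beyond 0.1 without LPS Fth1-low replicate 2 (0.28 between the gates, -0.27 against untreated), without untreated replicate 1 (0.11) and with total-count scaling (-0.11). Replicate numbers were not shown to pair libraries (deviations of same-numbered libraries correlated at 0.27 and 0.09 between the gates, -0.04 in LPS Fth1-low against untreated, and 0.10 and 0.29 in LPS Fth1-high against untreated cells), and the block changed no other member call. Among the other lists the block ended the calls between the gates of Gabarapl1 (adjusted p = 0.0548), Sqstm1 (0.053), Atg5 (0.0867), Mafk (0.0997) and Nfkb1 (0.0868), and against untreated cells those of Mafg (0.105) and Egln1 (0.106) in LPS Fth1-high cells. It added Cd63 in LPS Fth1-low (0.013) and Epas1 in LPS Fth1-high cells (0.0298), both against untreated cells.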
